A study of Mus musculus with 6 samples.

Results

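The 4 mouse globin genes Hba-x, Hbb-bh1, Hbb-y and Hba-a1 were followed on 6 Affymetrix arrays, through every probe set that the platform annotation assigns to them. That gave 11 probe sets of the 45101 on the array: 1 for Hba-x, 3 for Hbb-bh1, 3 for Hbb-y and 4 for Hba-a1. Of these, 8 carry 1 gene symbol and 3 are shared between Hba-a1 and its near-identical copy Hba-a2, so Hba-a1 has a single probe set of its own. The suffix of 6 of them (x_at or s_at) marks probes that can also bind other transcripts, and that of 3 (a_at) marks probes shared by several transcripts of 1 gene.

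All samples came from ICR mouse embryos at 8.5 dpc (days after coitus) with 3 to 4 somites, when blood has not yet begun to circulate. There were 3 groups of 2 arrays each: Flk1-positive cells, Flk1 KO embryos and WT (wild-type) embryos, and the embryo groups held the embryo proper. Flk1 is the VEGF receptor encoded by Kdr, which endothelial cells and the precursors of blood and endothelium carry. The design text also names Flk1+/GFP embryos, the genotype label of the cells gives no allele, and neither the knockout allele nor the way the Flk1-positive cells were selected is given in the sources used here. Whether these cells and the WT embryos also differ in genotype, and what part that has in a difference, cannot be told apart here.

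Haemoglobin is made of a pair of alpha-type and a pair of beta-type chains, which are encoded in separate gene clusters. The first red cells of the mouse, the primitive erythroid cells, arise in the blood islands of the yolk sac and carry embryonic haemoglobins. Hba-x (zeta globin) supplies the embryonic alpha-type chain, and Hbb-bh1 and Hbb-y (epsilon-y globin) supply the embryonic beta-type chains. Hba-a1 and Hba-a2 encode the alpha chain of adult haemoglobin, which primitive cells also make, and the adult beta chains come from Hbb-bs and Hbb-bt (Hbb-b1 and Hbb-b2 in the older names that arrays use).

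Erythroid factors act on globin promoters through short words, and the 250 bases before the RefSeq start of 3 of the genes are shown as examples of the embryonic alpha-type, adult alpha and embryonic beta-type genes. They are from assembly GRCm38.p6, read 5′ to 3′ on the strand of the gene: Hba-x at chr11:32276350-32276599 (plus strand), Hba-a1 at chr11:32283422-32283671 (plus strand) and Hbb-y at chr7:103853208-103853457 (minus strand). Capitals mark the GATA words (GATA with A or T before it and A or G after it), the word CACCC, the word CCAAT and the word TATAAA, each searched on both strands.
Hba-x: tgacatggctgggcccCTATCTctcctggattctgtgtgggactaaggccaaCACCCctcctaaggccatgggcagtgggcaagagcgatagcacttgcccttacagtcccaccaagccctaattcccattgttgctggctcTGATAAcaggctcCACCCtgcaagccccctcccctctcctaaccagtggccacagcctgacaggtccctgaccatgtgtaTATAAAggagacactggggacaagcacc
Hba-a1: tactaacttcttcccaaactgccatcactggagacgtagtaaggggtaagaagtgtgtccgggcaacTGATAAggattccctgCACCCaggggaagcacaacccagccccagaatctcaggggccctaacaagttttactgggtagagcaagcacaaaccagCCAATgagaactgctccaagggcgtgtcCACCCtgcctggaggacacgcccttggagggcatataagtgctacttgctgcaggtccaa
Hbb-y: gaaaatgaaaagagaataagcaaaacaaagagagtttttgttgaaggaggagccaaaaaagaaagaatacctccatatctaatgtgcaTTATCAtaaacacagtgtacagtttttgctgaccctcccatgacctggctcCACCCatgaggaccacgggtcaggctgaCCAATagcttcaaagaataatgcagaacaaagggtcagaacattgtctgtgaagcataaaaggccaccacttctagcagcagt

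The Hba-x window held 2 GATA words, 2 CACCC words and a TATAAA word that starts 28 bases before the transcription start, and no CCAAT word. The Hba-a1 window held 1 GATA word, 2 CACCC words and 1 CCAAT word, and the Hbb-y window 1 of each of these. These words are common: among 32851 mouse promoter windows of the same length, 26.5% held a GATA word, 52.0% CACCC, 33.8% CCAAT and 12.4% TATAAA. A match is a description of letters only. Over the 300 bases of their RefSeq promoter records, Hba-a1 and Hba-a2 share an identical run of 297 bases.

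The deposited values are linear probe-set signals scaled to a common level on each array. The background level was set on each array at the signal that 95% of 80 probe sets for smell and pheromone receptors do not exceed, and it lay between 49.1 and 78.3 on the 6 arrays. The brightest probe set of an array had a signal between 40308 and 46482. Kdr followed the labels, at 3309 and 3328 on the Flk1-positive arrays, 29.5 and 63.8 on the Flk1 KO arrays, and 544 and 546 on the WT arrays. Signals within a group correlated at 0.980 to 0.985 on the log2 scale. One array stood apart for the genes described here: Flk1 KO replicate 1 had far more signal in the adult-type globins than Flk1 KO replicate 2. Differences of the adult-type globins from Flk1 KO are therefore also given without it. Those of the embryonic globins are given with both Flk1 KO arrays. Replicate 1 was the brighter of the 2 for these as well, by up to 9.40 times on an Hbb-y probe set. Each group had 2 arrays and the labels do not say whether they came from separate animals or pools, so the p-values reflect no more than how these samples vary, which may be technical.

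Differences are in units of log2(signal + 21.61), a scale that compresses changes near background, and come with ± SE from limma over all 6 arrays with p-values adjusted by Benjamini-Hochberg over the 33778 probe sets tested. A probe set counts as called at an adjusted p under 0.05. Of the 11 globin probe sets, 10 were tested. The Hba-a1 probe set without a partner was too dim. The filter used the mean over all 6 arrays, so bright Flk1-positive cells helped dim members pass, and counts over the 10 are descriptions. Each array holds RNA from many cells, and more cells of a type cannot be told apart from more RNA per cell.

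The embryonic globins were bright in Flk1-positive cells and dim in the embryos. Hba-x read 7677 and 8996 on the Flk1-positive arrays, 105 and 51.5 on the WT arrays, and 70.0 and 7.84 on the Flk1 KO arrays. The lower Flk1-positive array lay far above the brighter WT array, whereas the WT and Flk1 KO arrays overlapped. Hba-x was 6.44 ± 0.57 above its WT level in Flk1-positive cells (limma adjusted p = 0.00136) and 7.33 ± 0.57 higher than in Flk1 KO embryos (limma adjusted p = 0.000802).

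Hbb-bh1, the early embryonic beta-type chain, had the brightest globin probe sets. Probe set 1437810_a_at read 26483 and 26417 on the Flk1-positive arrays, 361 and 235 on the WT arrays, and 49.5 and 36.7 on the Flk1 KO arrays. Probe set 1437990_x_at read 28584 and 29097, then 484 and 225, then 35.2 and 27.2 in the same order of groups. Probe set 1450736_a_at read 23881 and 26472, then 259 and 187, then 4.06 and 1.71. All 3 put the groups in the same order, with no overlap between any pair of groups, and both Flk1 KO arrays were at or below background on each. The x_at probe set, which can cross-hybridise, moved like the others, with 6.35 ± 0.34 between Flk1-positive cells and WT embryos beside 6.40 ± 0.23 and 6.70 ± 0.19 (limma adjusted p from 0.000388 to 0.000452).

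Hbb-y, the other embryonic beta-type chain, followed the same order of groups with wider spread among the embryos. Probe set 1436717_x_at read 4763 and 4687 on the Flk1-positive arrays, 339 and 99.0 on the WT arrays, and 68.0 and 7.23 on the Flk1 KO arrays. Probe set 1436823_x_at had 5131 and 5011, then 307 and 70.4, then 66.0 and 13.8. The a_at probe set 1450621_a_at had 1502 and 1503, then 70.6 and 16.8, then 4.54 and 1.54. Among the embryo arrays it was above background on WT replicate 1 only. On each of the 3 Hbb-y probe sets Flk1-positive arrays agreed closely, while WT replicate 1 was 3.42 to 4.36 times WT replicate 2. Flk1-positive cells were 4.51 ± 0.70, 4.87 ± 0.69 and 4.68 ± 0.40 above WT embryos on these probe sets (limma adjusted p = 0.0083, 0.00626 and 0.00129).

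**Figure D1:**
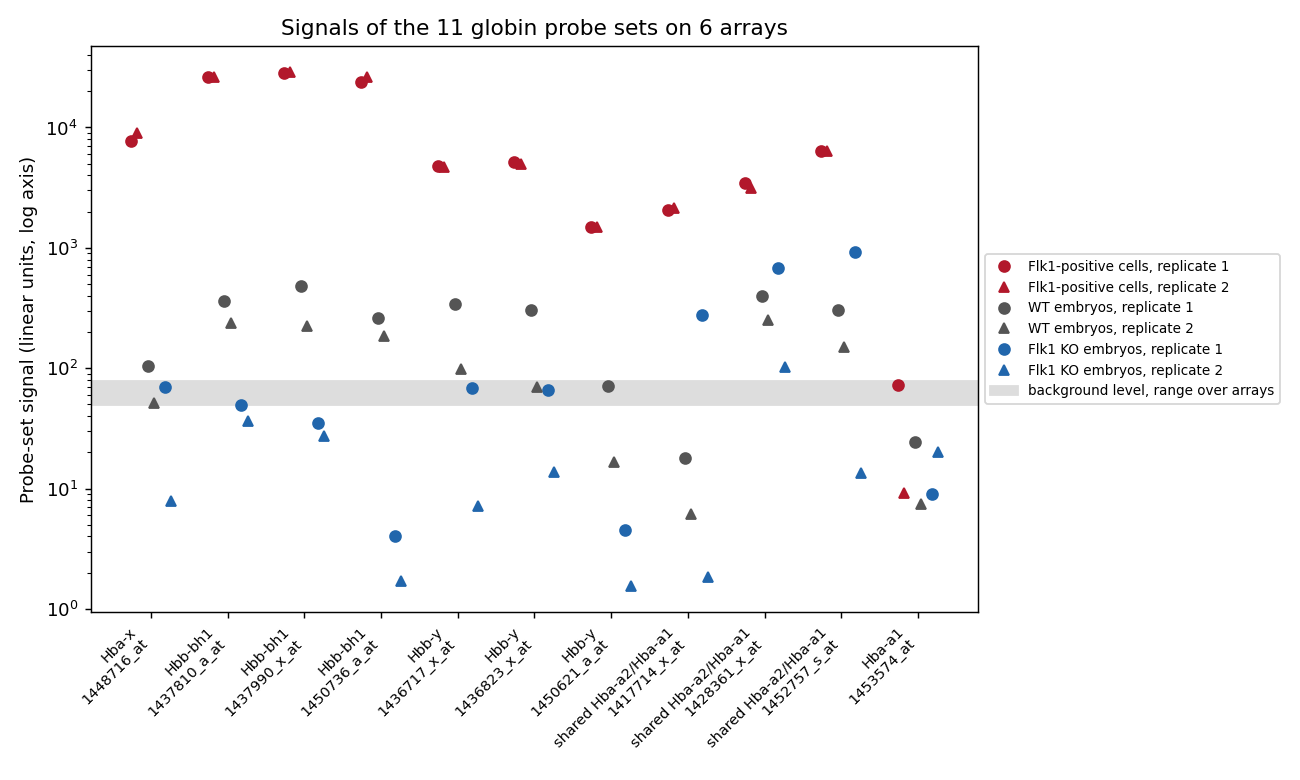
Signal of each of the 11 globin probe sets (horizontal axis) on each of the 6 arrays (vertical axis, linear units on a log axis), with Flk1-positive cells in red, WT embryos in grey, Flk1 KO embryos in blue, circles for replicate 1, triangles for replicate 2, and the range of the background level over the arrays as a grey band. The 10 tested probe sets lie between 1502 and 29097 in Flk1-positive cells, above every embryo array, and the Hba-a1 probe set without a partner stays at or below background.

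The adult alpha chain was measured almost only through probe sets shared by Hba-a1 and Hba-a2. Probe set 1452757_s_at read 6338 and 6376 on the Flk1-positive arrays, 306 and 151 on the WT arrays, and 917 and 13.3 on the Flk1 KO arrays. Probe set 1428361_x_at read 3462 and 3166, then 400 and 252, then 675 and 103. Probe set 1417714_x_at read 2069 and 2137, then 17.8 and 6.20, then 279 and 1.83. Flk1-positive cells were above all embryo arrays on each of the 3. In both embryo groups the shared probe sets disagreed about whether there was signal: 1417714_x_at was not above background in WT embryos, where both other probe sets were.

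Flk1-positive cells exceeded WT embryos by 6.0 ± 1.13 on 1417714_x_at (limma adjusted p = 0.0155; at least 37.8-fold, against the background level), by 3.29 ± 0.78 on 1428361_x_at (limma adjusted p = 0.0318) and by 4.75 ± 1.46 on 1452757_s_at, which was not called (limma adjusted p = 0.0673). The SE comes from the spread within all 3 groups, and the gap between the Flk1 KO arrays widened it. Without Flk1 KO replicate 1 the same 4.75 had an SE of 0.34 and was called (limma adjusted p = 0.00427). The calls of 1417714_x_at and 1428361_x_at were lost when any 1 array of the groups compared was left out. Against Flk1 KO embryos the differences were 4.66 ± 1.13, 3.50 ± 0.78 and 5.14 ± 1.46 (limma adjusted p = 0.0309, 0.0244 and 0.0503), and without Flk1 KO replicate 1 they were 6.50, 4.74 and 7.51, all called. Without either Flk1-positive array the calls of 1417714_x_at and 1428361_x_at against Flk1 KO embryos were lost, the first of them also without either WT array and when only these groups were fitted. With the 10th percentile as pseudocount 1417714_x_at was not called against Flk1 KO embryos, nor 1428361_x_at against WT embryos.

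The probe sets that belong to 1 adult alpha gene alone did not show this pattern. Hba-a1 on its own probe set 1453574_at read 72.3 and 9.11 on the Flk1-positive arrays, 24.5 and 7.43 on the WT arrays, and 9.0 and 20.0 on the Flk1 KO arrays, none above its array's background. Hba-a2 on its own probe set 1427219_at had 87.2 and 79.4, then 70.0 and 53.2, then 86.3 and 71.2, just above background on all 6 arrays. Its difference between Flk1-positive cells and WT embryos was 0.34 ± 0.16 (limma adjusted p = 0.192). Which of the pair gave the signal of the shared probe sets cannot be told from these arrays.

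Counted over the 3 comparisons, 9 of the 10 tested globin probe sets were called higher in Flk1-positive cells against WT embryos, where 11.6% of all tested probe sets were called higher and 14.4% lower. Arrays of these groups did not overlap for 10 of 10, beside 31.3% of all tested. Against Flk1 KO embryos 9 of 10 were again called higher, beside 13.8% of all (15.4% lower), and 10 of 10 did not overlap, beside 32.2%. Both of these comparisons use the same Flk1-positive arrays. The calls of Hba-x, Hbb-bh1 and Hbb-y in both held in each of the 15 alternative settings.

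**Figure D2:**
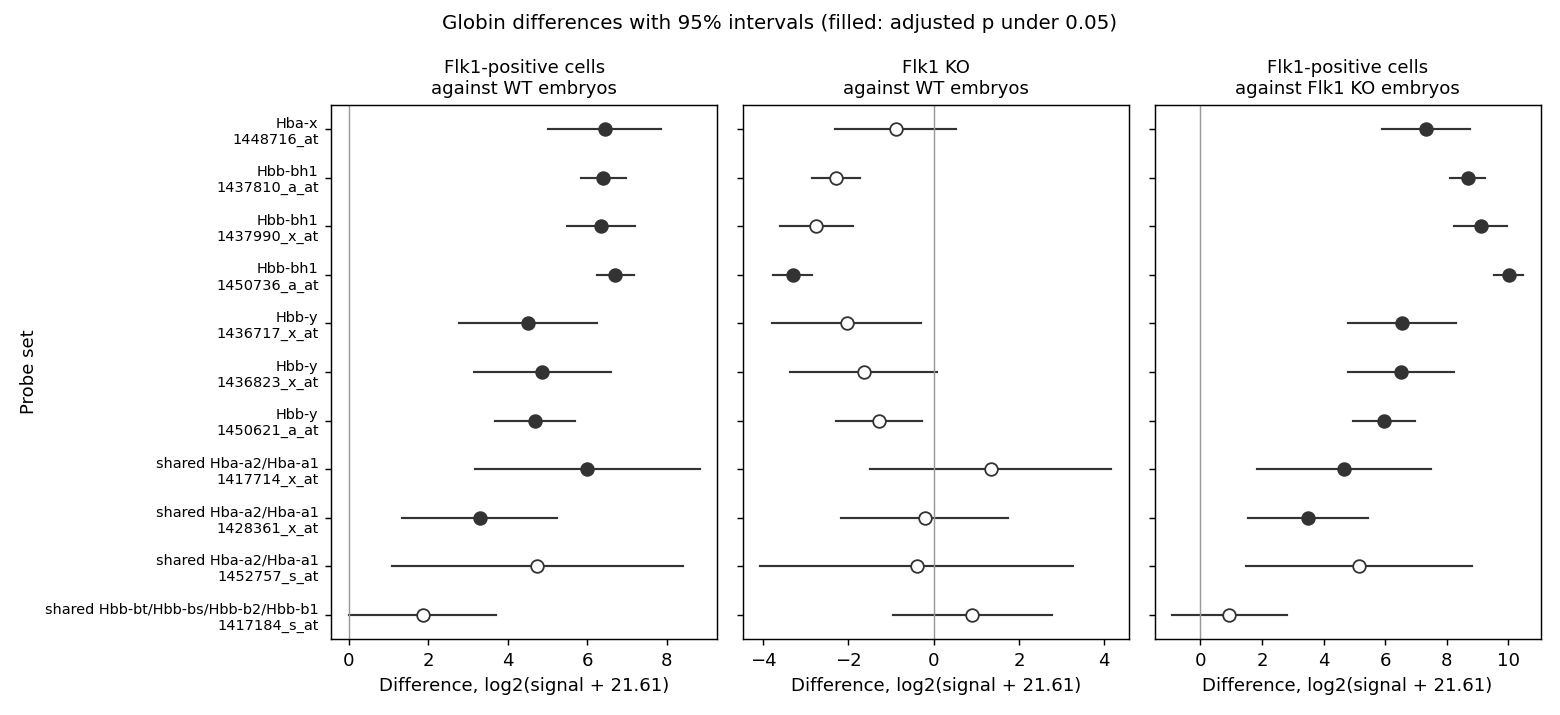
Differences between groups for the 10 tested globin probe sets and the shared adult beta probe set (vertical axis), in units of log2(signal + 21.61) on the horizontal axis, in 1 panel per comparison, with points for the limma estimate from 2 arrays per group, bars for the 95% interval and filled points for an adjusted p under 0.05. Hba-x, Hbb-bh1 and Hbb-y lie between 4.51 and 6.70 above WT embryos, and in Flk1 KO against WT embryos only 1 Hbb-bh1 probe set is filled, at -3.30.

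The question of what the embryo loses without this receptor was addressed by setting Flk1 KO against WT embryos. Of the 10 tested globin probe sets, 1 was called lower, beside 0.0799% of all tested probe sets, and 0 were called higher, beside 0.0%. That probe set was Hbb-bh1 1450736_a_at, at -3.30 ± 0.19 (limma adjusted p = 0.0224), and since both Flk1 KO arrays lay below background the fall is at least 4.26-fold. The other Hbb-bh1 probe sets were at -2.28 ± 0.23 and -2.75 ± 0.34 (limma adjusted p = 0.0736 and 0.114), with arrays that did not overlap. Their Flk1 KO arrays were also not above background, so their falls are at least 5.64-fold and 6.40-fold. The call of 1450736_a_at was lost in 9 of the 15 alternative settings, among them leaving out any single array, each of which left no call at all over all probe sets tested.

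The other embryonic globins did not pass the test in Flk1 KO embryos. Hbb-y was at -2.04 ± 0.70, -1.64 ± 0.69 and -1.27 ± 0.40 on its 3 probe sets (limma adjusted p = 0.524, 0.623 and 0.493), with both Flk1 KO arrays under both WT arrays on each. On 1450621_a_at WT replicate 2 (16.8) and both Flk1 KO arrays (4.54 and 1.54) were under background, so their order has no meaning. The margin on 1436823_x_at was narrow, with 70.4 on WT replicate 2 and 66.0 on Flk1 KO replicate 1. Hba-x was at -0.89 ± 0.57 (limma adjusted p = 0.764), with a 95% interval from -2.30 to 0.53 that includes no difference. This rests on Flk1 KO arrays that differ: replicate 1 read 70.0, between the WT arrays, and replicate 2 read 7.84, under both. The WT signals were themselves near background, at 105 beside a background of 60.5 on replicate 1 and 51.5 beside 51.0 on replicate 2. Little room was therefore left for a fall of Hba-x to be seen. In all, 6 of 10 globin probe sets, 1450621_a_at among them, had Flk1 KO arrays below the WT arrays without overlap, beside 21.4% of all tested. At an unadjusted p under 0.05, 5 of the 10 were lower, as were 1997 of all 33778 probe sets, and 837 were higher.

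The adult-type globins had no settled direction between Flk1 KO and WT embryos. The shared alpha probe sets differed by 1.34 ± 1.13, -0.21 ± 0.78 and -0.39 ± 1.46 for 1417714_x_at, 1428361_x_at and 1452757_s_at (limma adjusted p = 0.823, 0.967 and 0.967). Without Flk1 KO replicate 1 they were -0.50, -1.45 and -2.77, and without Flk1 KO replicate 2 they were 3.18, 1.04 and 1.98, so the sign follows the array kept. None of these 6 values passed the test.

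The adult beta chains were measured by 1417184_s_at, a probe set shared by Hbb-bt, Hbb-bs, Hbb-b2 and Hbb-b1 and therefore outside the 4 genes. It read 713 and 760 on the Flk1-positive arrays, 198 and 179 on the WT arrays, and 889 and 148 on the Flk1 KO arrays. Flk1 KO replicate 1 was the brightest of the 6 arrays here, above both Flk1-positive arrays. The difference of Flk1-positive cells from WT embryos was 1.86 ± 0.74 (limma adjusted p = 0.129), and it was called without either Flk1 KO array (limma adjusted p = 0.00345 without replicate 1). Against Flk1 KO embryos it was 0.95 ± 0.74 (limma adjusted p = 0.39), 2.16 without Flk1 KO replicate 1 and -0.27 without Flk1 KO replicate 2.

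Both Flk1 KO arrays had the same label. Gaps between replicates were counted as differences of log2(signal + 21.61), where a gap in plain signal near background counts for less, and a gap of at least 3 occurred in 4 of the 33778 tested probe sets. Of these 4, 2 were the shared alpha globin probe sets 1452757_s_at and 1417714_x_at, at 4.75 and 3.68 on that scale, and in all 4 replicate 1 was the brighter. The others were a Marcks probe set (3.43) and an x_at probe set (3.28) that is shared by Igkc, the immunoglobulin kappa constant gene, and 4 other kappa gene symbols. These were named after their values were seen. A gap of at least 2 on the same scale occurred in 35 probe sets, 27 of them brighter in replicate 1, and 3 of the 10 globin probe sets were among these. Most of the 27 were for genes that are neither globins nor immunoglobulins. Examples, picked after their values were seen, are Pclaf (1244 on replicate 1 and 153 on replicate 2), Phgdh (2414 and 394) and Sf1 (1155 and 251). In plain signal replicate 1 was 152, 68.7 and 6.54 times replicate 2 on the shared alpha probe sets, and for embryonic globins near background it was 8.93 times for Hba-x and 9.40 and 4.79 times for the x_at probe sets of Hbb-y.

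All 3 probe sets shared by Igkc also had a gap between the Flk1 KO arrays, but, unlike the adult-type globins, they were not bright in Flk1-positive cells. They read 223, 508 and 347 on Flk1 KO replicate 1, 43.8, 57.2 and 16.3 on Flk1 KO replicate 2, and between 4.07 and 69.0 on the other 4 arrays. Jchain, which joins immunoglobulin chains, was at 100 on Flk1 KO replicate 1, 9.66 on replicate 2 and 15.8 to 37.7 on the rest. Of 52 immunoglobulin probe sets 20 were tested. Of these, 7 were brighter by at least 1 in log2(signal + 21.61) on Flk1 KO replicate 1, 0 on replicate 2, with 13 in between. Over all tested probe sets 2.44% were brighter by at least 1 on replicate 1. The 7 included the 3 probe sets shared by Igkc and that of Jchain. They also included probe sets for a kappa variable gene and for Iglv1 that were not above background on any array. These read 46.4 and 37.3 on Flk1 KO replicate 1, and 7.21 and 4.33 on replicate 2. Probe sets for Ighm (immunoglobulin mu) were mixed. The one above background on all 6 arrays, an x_at probe set, had no such gap, at 365 and 330. A tested a_at probe set read 105 on Flk1 KO replicate 1 and 28.6 on replicate 2. An s_at probe set, which was not tested, read 125 and 7.92. Both were above background on Flk1 KO replicate 1 only. No other Ighm probe set had a gap of at least 1 in log2(signal + 21.61). Immunoglobulin is made by B cells and plasma cells, and adult beta globin is the main beta chain of the mother's red cells. Of the 9 measured markers on a list of mature white cells and definitive blood, 8 (S100a8, S100a9, Camp, Ltf, Lcn2, Cd3e, Cd79a and Car1) were not above background on any array, and its summed signal was 225 and 138 on the Flk1 KO arrays, 205 and 126 on the WT arrays, and 189 and 201 on the Flk1-positive arrays. That list also held Igkc, which has only the shared probe sets given above, so it is in neither the count nor the sums. The part of maternal blood in the adult-type globin signal was not tested.

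**Figure D3:**
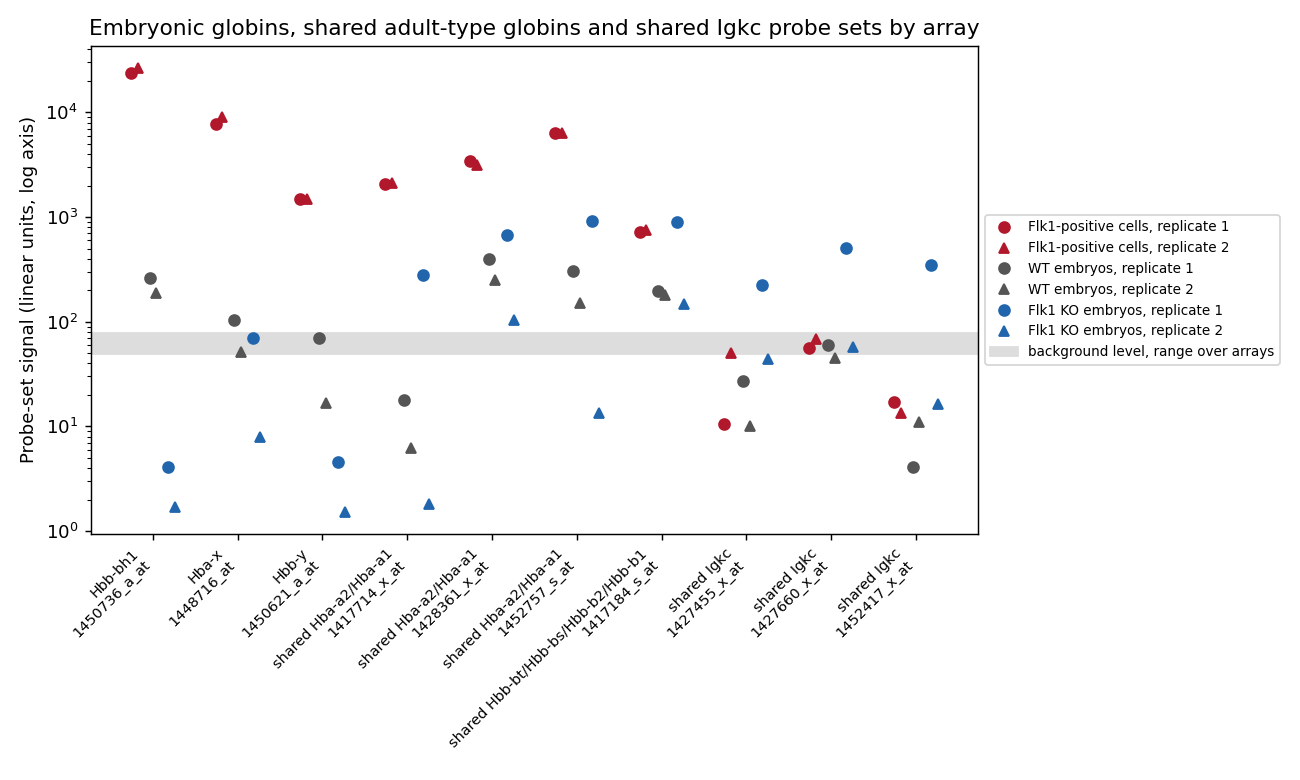
Signals (vertical axis, linear units on a log axis) on each array of 3 embryonic globin probe sets, the 3 shared adult alpha probe sets, the shared adult beta probe set and the 3 probe sets shared by Igkc (horizontal axis), with colours for the groups, circles for replicate 1, triangles for replicate 2 and a grey band for the range of the background level. Flk1 KO replicate 1 (blue circles) is the brightest array for the adult beta probe set at 889 and for the 3 Igkc probe sets at 223 to 508, and on Hbb-bh1 it reads 4.06.

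In the WT embryos the globins also differed between replicates, though less. Replicates differed by at least 1 in log2(signal + 21.61) in 4 of the 10 globin probe sets, always with WT replicate 1 the brighter, beside 2.83% of all tested probe sets. In Flk1 KO embryos 6 of 10 did so, beside 4.06%, and in Flk1-positive cells 0 of 10, beside 3.95%. In plain signal the brighter WT array was up to 4.36 times the other among the 10, and 1.11 times for the shared adult beta probe set.

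Globins shifted unequally between Flk1-positive cells and WT embryos. Hbb-bh1 shifted further than the adult-type probe sets it was set against, and also further than embryonic Hbb-y. By size of shift the embryonic globins did not stand apart from the adult-type ones. On each array the difference in log2(signal + 21.61) between Hbb-bh1 (1450736_a_at) and the adult beta probe set was taken, whose size depends on the probes, so that only its movement between arrays is read. It was 5.02 and 5.08 on the Flk1-positive arrays and 0.36 and 0.06 on the WT arrays. Against the adult alpha probe set 1452757_s_at it was 1.91 and 2.05, then -0.22 and 0.27. Among the embryonic globins, Hbb-bh1 minus Hba-x was 1.63 and 1.55, then 1.15 and 1.51, and Hbb-bh1 minus Hbb-y (1450621_a_at) was 3.97 and 4.12, then 1.60 and 2.44, with Hbb-y under background on WT replicate 2. No value is given for Flk1 KO embryos, where this Hbb-bh1 probe set was far under background on both arrays.

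Other globin genes added few calls. Of 18 listed, 6 had a probe set of their own and 4 were tested. Between Flk1-positive cells and WT embryos limma called 0 of these 4 (0 at an unadjusted p under 0.05). Over all tested probe sets 11.6% were called higher and 14.4% lower there. Against Flk1 KO embryos 1 of the 4 was called higher, beside 13.8% of all tested. That 1 was Cygb (cytoglobin, a globin of non-erythroid cells), which read 94.9 and 107 on the Flk1-positive arrays, 36.4 and 55.1 on the WT arrays, and 28.1 and 2.96 on the Flk1 KO arrays. Both Flk1 KO arrays were under background, so Cygb was at least 1.95-fold above Flk1 KO in Flk1-positive cells (limma adjusted p = 0.0158), a call lost without either Flk1-positive array. Myoglobin (Mb) was not above background on any array.

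Genes that control globin transcription were higher in Flk1-positive cells in part. Of a list of 38 regulators, all tested, 17 were called higher and 5 lower against WT embryos, with a median difference of 0.48 beside 11.6%, 14.4% and -0.04 over all probe sets tested. Nfe2, the erythroid subunit of the factor that binds the locus control regions, read 571 and 532 in Flk1-positive cells and was not above background on any embryo array, so it was at least 9.92-fold above WT (limma adjusted p = 0.00098). Klf1, which binds the CACCC words of globin promoters, read 757 and 700 against 27.9 and 28.9 in WT embryos, at least 13.1-fold higher (limma adjusted p = 0.000906). Lyl1, a relative of Tal1, was 3.76 ± 0.40 higher (limma adjusted p = 0.00249).

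The GATA-binding factor Gata1 and the repressor of embryonic globins Bcl11a were looked up after the values were seen. Gata1 read 639 and 714 on the Flk1-positive arrays, 61.4 and 103 on the WT arrays, and 45.6 and 73.6 on the Flk1 KO arrays. Bcl11a read 164 and 184, then 6.06 and 27.0, then 30.9 and 40.2. Both were called higher in Flk1-positive cells against WT embryos (limma adjusted p = 0.00173 and 0.00343), at 2.78 ± 0.26 for Gata1 and at least 3.12-fold for Bcl11a. Lower in Flk1-positive cells were Zbtb16 (-2.29 ± 0.30), Lin28a, an RNA-binding protein of early embryonic cells (-1.23 ± 0.12), and Sox6, which acts with Bcl11a on embryonic globin genes (-0.86 ± 0.15), with limma adjusted p-values of 0.00459, 0.00195 and 0.0121. The call of Sox6 was lost without either WT array or Flk1-positive replicate 2.

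Against Flk1 KO embryos 17 regulators were called higher and 7 lower, beside 13.8% and 15.4% of all tested probe sets. The higher ones were led by Lyl1, Tal1 and Nfe2, the lower ones by Zbtb16, Lin28a and Sox6. In Flk1 KO against WT embryos 1 of the 38 was called, lower, and 0 were higher (limma; 5 lower and 0 higher at an unadjusted p under 0.05). That gene was Tal1 (SCL), which blood and endothelial precursors need, at 414 and 295 on the WT arrays and 34.1 and 29.5 on the Flk1 KO arrays. Its fall was at least 6.77-fold (limma adjusted p = 0.0391), and the call was lost in 10 of the 15 alternative settings. Klf1 was under background on both WT arrays, so a fall in the Flk1 KO could not have been seen.

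**Figure D4:**
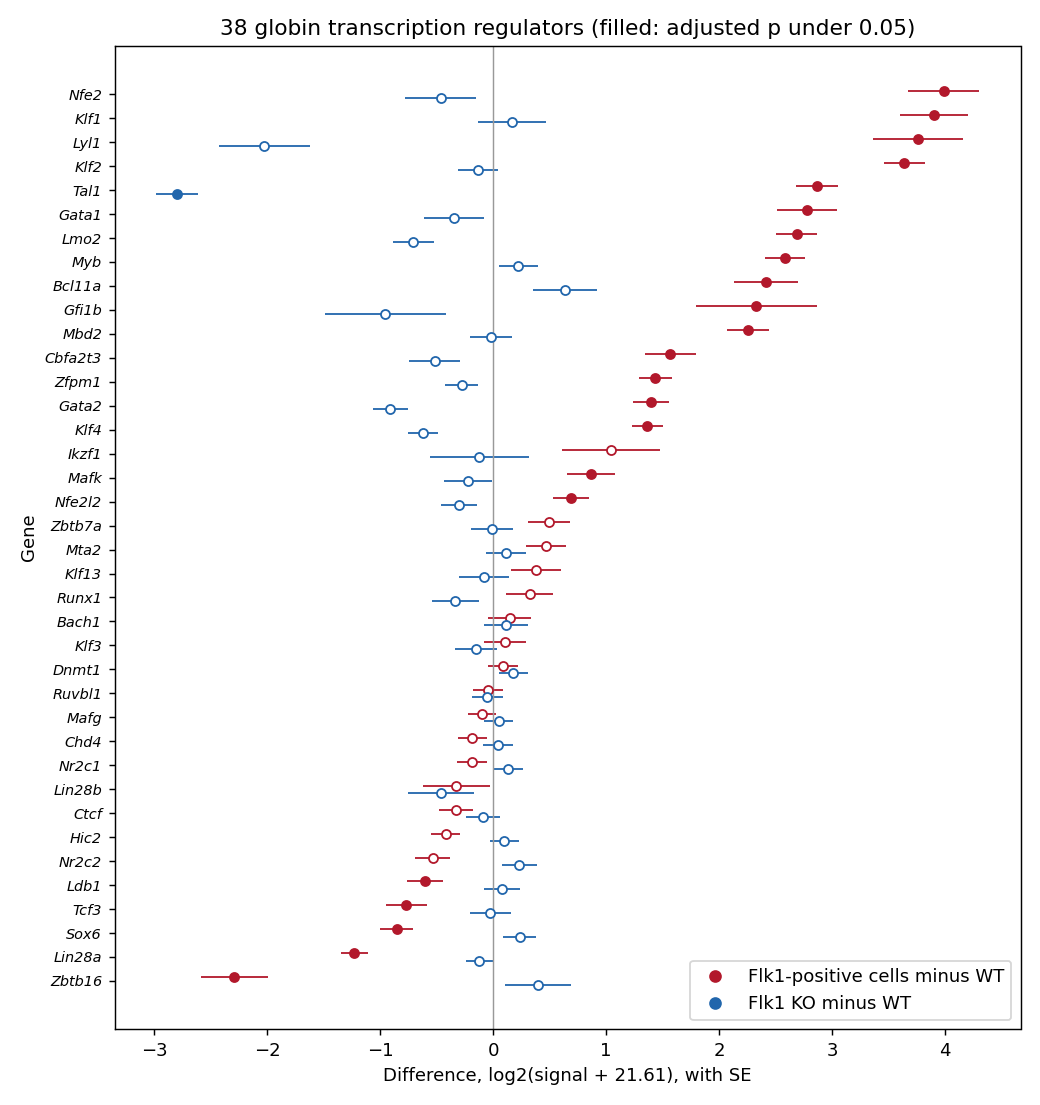
Differences of 38 globin transcription regulators (vertical axis) in units of log2(signal + 21.61) (horizontal axis) between Flk1-positive cells and WT embryos (red) and between Flk1 KO and WT embryos (blue), with points for the limma estimate from 2 arrays per group, bars for its SE and filled points for an adjusted p under 0.05. Red points run from Zbtb16 at -2.29 to Nfe2 at 3.99 with 22 filled, and the single filled blue point is Tal1 at -2.80.

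Haem genes moved in the same direction in part. A list of haem synthesis, iron supply and haem breakdown had 26 tested genes. Of these, 9 were called higher and 2 lower in Flk1-positive cells against WT embryos, with a median difference of 0.24. Over all probe sets tested 11.6% were called higher and 14.4% lower, with a median of -0.04. The 9 included Hmox1 and Hmox2, which act in haem breakdown. Alas2, the erythroid enzyme of the first step of haem synthesis, read 231 and 253 on the Flk1-positive arrays, 4.72 and 6.81 on the WT arrays, and 10.05 and 15.2 on the Flk1 KO arrays, and was at least 4.34-fold above WT (limma adjusted p = 0.000388). The biliverdin reductases Blvrb and Blvra, which also act in haem breakdown and not in its synthesis, were 2.50 ± 0.42 and 1.51 ± 0.13 higher (limma adjusted p = 0.011 and 0.00141). Tfrc, the transferrin receptor that brings iron into cells, was lower at -0.60 ± 0.12, and Ireb2, an iron-sensing RNA-binding protein, at -0.67 ± 0.14 (limma adjusted p = 0.0182 and 0.0222). Against Flk1 KO embryos the counts were again 9 and 2, beside 13.8% and 15.4% of all tested probe sets. In Flk1 KO against WT embryos limma called 0 of 26 (2 at an unadjusted p under 0.05). The calls of Tfrc and Ireb2 against WT embryos were lost when any 1 array compared was left out, and that of Blvrb without either WT array. The higher calls of Alad, Abcb10, Fth1 and Slc25a28 were also lost without any 1 array compared.

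Genes of haemoglobin assembly and protection were called in both directions. Of 12 tested, against WT embryos, 1 was called higher, Gpx1 (glutathione peroxidase, 0.65 ± 0.13), and 3 lower: Cyb5r3, which reduces methaemoglobin (-1.16 ± 0.16), Haghl (-1.05 ± 0.22) and Bpgm, which makes the oxygen-release effector of haemoglobin (-0.83 ± 0.19). Over all tested probe sets 11.6% were called higher and 14.4% lower. Against Flk1 KO embryos 3 were higher, Sod1, Gpx1 and Cyb5a, and the same 3 genes were lower. Over all tested probe sets 13.8% were called higher and 15.4% lower in that comparison. The 3 higher calls were lost when any 1 of the arrays compared was left out. In Flk1 KO against WT embryos limma called 0 of 12 (1 at an unadjusted p under 0.05). Against WT embryos the calls of Gpx1 and Bpgm were lost when any 1 array compared was left out, that of Haghl without WT replicate 2 or either Flk1-positive array.

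The genes next to the globin clusters were read to see whether their signals moved with the globins. Sh3pxd2b flanks the alpha cluster on one side. It read 663 and 786 on the Flk1-positive arrays, 408 and 480 on the WT arrays, and 801 and 606 on the Flk1 KO arrays, above WT without overlap in both groups but with no call (0.68 ± 0.19 and 0.63 ± 0.19; limma adjusted p = 0.054 and 0.486). On the other side Nprl3, whose introns carry the alpha globin enhancers, read 504 and 507 on the Flk1-positive arrays, 596 and 485 on the WT arrays, and 621 and 493 on the Flk1 KO arrays. Next came Mpg, a DNA repair enzyme, at 757 and 771, then 703 and 687, then 764 and 728. Neither Nprl3 nor Mpg was called in any comparison (limma adjusted p from 0.469 to 0.971). The third gene on, Rhbdf1, was 1.40 ± 0.21 above its WT level in Flk1-positive cells (limma adjusted p = 0.0074), a call that was lost without WT replicate 1, and the fourth, Snrnp25, was lower (-0.69 ± 0.12, limma adjusted p = 0.0138), a call lost without any 1 of the arrays compared.

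Over the 14 tested genes of this list 3 were called higher and 1 lower against WT embryos, beside 11.6% higher and 14.4% lower over all probe sets tested. Besides Rhbdf1 the higher genes were Trim30a (2.0 ± 0.22) and Stim1 (1.10 ± 0.17; not called without WT replicate 2), which lie on the chromosome of the beta cluster but 32 and 79 genes away from it in the RefSeq order. The olfactory receptor genes that flank the beta cluster, Olfr65 and Olfr66, were tested with no call. Both are among the receptor probe sets that set the background level, and they read 10.4 to 86.4. Whether they moved with the globins can therefore not be read from them. The 14 are not all neighbours: Polr3k and Tgfbi were not placed beside either cluster. Trim6, Trim5 and Rrm1 lie 23, 25 and 78 genes from the beta cluster. In Flk1 KO against WT embryos limma called 0 of 14 (1 at an unadjusted p under 0.05).

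The genes whose signals were most like those of Hba-x, Hbb-bh1 and Hbb-y were found over the 6 arrays, and Hba-a1, whose own probe set was not tested, has none. Likeness was the root mean square difference of log2 values after centring each probe set, over 6 arrays in 3 groups, so it is set mainly by the group differences. For Hba-x they were Lyve1, a hyaluronan receptor of endothelium and macrophages (0.50), Clec14a, an endothelial lectin (0.67), and Gimap4, a GTPase (0.74). For Hbb-bh1 they were Lyve1 (0.39), Ctla2a, a protease inhibitor (0.90), and Gimap4 (1.0), and for Hbb-y they were Ctla2b (0.47), Lyl1 (0.50) and Igf1, a growth factor (0.50). Lyve1, on the probe set most like Hba-x, read 9470 and 9839 on the Flk1-positive arrays, 65.0 and 54.6 on the WT arrays, and 35.2 and 28.9 on the Flk1 KO arrays.

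Marker genes of several cell types moved with the globins. The endothelial list summed to 59029 and 59344 on the Flk1-positive arrays, 4507 and 4284 on the WT arrays, and 1332 and 1212 on the Flk1 KO arrays, with all 15 genes called higher in Flk1-positive cells against WT embryos and 7 called lower in the Flk1 KO. Of 18 tested markers of primitive erythroid cells, 11 were called higher and 2 lower in Flk1-positive cells when set against WT embryos, and limma called 0 between Flk1 KO and WT embryos (3 at an unadjusted p under 0.05). The list summed to 11227 and 11341 on the Flk1-positive arrays, 3141 and 2794 on the WT arrays, and 2740 and 2451 on the Flk1 KO arrays without Cd24a, left out after its values were seen. With Cd24a, which many cells of the embryo carry, the sums were 16821 and 17296, then 24299 and 23929, then 24737 and 25587. Beside these counts, 11.6% of all tested probe sets were called higher and 14.4% lower in Flk1-positive cells against WT embryos. In Flk1 KO against WT embryos 0.0799% were called lower. The part of each cell type in the globin differences was not tested.

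White cell and platelet-lineage markers were also higher in the Flk1-positive cells. Of 10 macrophage and other white cell markers, 6 were called higher than in WT embryos, with sums of 2418 and 2490 against 768 and 696. Of 6 tested megakaryocyte markers 3 were called higher (Pf4, Itga2b and Vwf), with sums of 3991 and 3841 against 650 and 590. Lists of other tissues were lower: yolk sac endoderm in 9 of 10 genes, cardiomyocyte in 6 of 7 and neuroectoderm in 5 of 5. The shares over all tested probe sets were again 11.6% higher and 14.4% lower. RNA control probe sets were uneven: the log2 excess of 3′ over 5′ signal for Tfrc lay at 1.26 and 1.35 on the Flk1-positive arrays and at 0.94 to 1.05 on the embryo arrays, for beta-actin it lay at 0.26 and 0.29 and at 0.47 to 0.58, and it was between -0.37 and -0.32 on all 6 arrays for Gapdh. Their part in the globin differences was not tested.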

How the data were processed

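The deposited values, a linear probe-set intensity for 45101 probe sets on each of 6 arrays, were used as given. Per the labels' protocols, purification used an RNeasy Micro kit, and biotin-labelled RNA was hybridised to Affymetrix GeneChips. The series design names GeneSpring. On every array the trimmed mean (2% left out at each end) is 500 and the lowest value is 1, so the authors' values were scaled and have a floor. Which program scaled them is not stated in these sources.

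The platform annotation gives 34958 probe sets 1 symbol, 932 several and 9211 none. The 64 control probe sets were left out. Signals were transformed as log2(signal + 21.61), the pseudocount being the 25th percentile of all values, and the 33778 probe sets whose mean log2 value reached its 25th percentile were tested. The model had group as its only term and all 6 arrays (limma 3.58.1, R 4.3.3, 3 residual degrees of freedom plus 2.49 from the prior, two-sided tests), and was tested on simulated data. Where a group was not above background on any of its arrays, the fold is given as at least the brighter group's mean over, per array, the higher of the background level and the signal. Figures used matplotlib 3.10.9.

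The members and gene lists were chosen with earlier results of these data known. Named genes were all globin probe sets, Kdr, the neighbours of the clusters, the 3 most-like genes of each globin, and of each list up to 3 higher and 3 lower called genes with arrays that do not overlap. A listed gene was represented by its brightest probe set with 1 symbol. Promoter sequences are from RefSeq (GRCm38.p6), where the 4 globins were matched by symbol. No build is stated for the array annotation. The 15 alternatives were the pseudocount (10th and 50th percentile), fitting only the groups compared, a replicate block, no filter or one at the 50th percentile, median centring, quantile normalization, a robust prior with an intensity trend, and leaving out each of the 6 arrays.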

Additional observations from a re-analysis of the deposited data

How the results depend on the processing

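Between Flk1-positive cells and either embryo group, 8 to 10 globin probe sets were called under the alternatives that keep all arrays and 7 to 10 when 1 array was left out. In Flk1 KO against WT embryos, where 1 globin probe set and 27 of all were called, the counts were 0 and 0 with the 10th percentile as pseudocount, with only both groups compared, with a replicate block and when any 1 array was left out. They were 3 and 74 with the median as pseudocount, 3 and 93 with the 50th percentile filter and 3 and 134 with the intensity trend. Over all probe sets the count was 7 without a filter, 12 after quantile normalization and 14 after median centring. Leaving out 1 array gave 4365 to 8936 calls in all between Flk1-positive cells and WT embryos (8803 with every array) and 5897 to 7856 between them and Flk1 KO embryos (9868 with every array). A lone array is then assumed to vary like the other groups. The labels do not say whether replicate numbers pair the samples. Deviations of same-numbered arrays correlated at 0.03, 0.01 and 0.02 over all tested probe sets, which cannot exclude a shared source. On every tested globin probe set replicate 1 was the brighter in both WT and Flk1 KO embryos.

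Signs turned for the adult-type globins, given here with their lowest and highest value when 1 array was left out. In Flk1 KO against WT embryos the range was -0.50 (without Flk1 KO replicate 1) to 3.18 for 1417714_x_at, -1.45 to 1.04 (without Flk1 KO replicate 2; 0.11 without WT replicate 1) for 1428361_x_at, -2.77 to 1.98 (without Flk1 KO replicate 2; 0.07 without WT replicate 1) for 1452757_s_at and -0.30 (without Flk1 KO replicate 1) to 2.12 for the adult beta probe set. With the median as pseudocount 1452757_s_at was at 0.035, and the cause was not tested. In Flk1-positive cells against Flk1 KO embryos the adult beta probe set ranged from -0.27 (without Flk1 KO replicate 2) to 2.16. Signals under the background level, up to 78.3, have no order.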
